A study of Mus musculus with 15 samples.

Results

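The genes described here are the G1 cyclins Ccnd1, Ccnd2, Ccnd3, Ccne1 and Ccne2, their kinases Cdk2, Cdk4 and Cdk6, and the pocket proteins Rb1 and Rbl1, in p53-deficient mouse T cells and T-cell lymphomas. These 10 genes, of 18193 named by the array, were listed by function. They are covered by 30 probe sets, each a group of probes to a stretch of transcript, and the probe set with the highest mean stands for its gene. By RefSeq, Ccnd1 and Ccne1 lie on chromosome 7, Cdk2 and Cdk4 on 10, Ccnd2 on 6, Ccnd3 on 17, Ccne2 on 4, Cdk6 on 5, Rb1 on 14 and Rbl1 on 2. All 10 genes passed the filter on low values that 11902 genes passed.

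The 15 arrays hold RNA of 9 mouse peripheral T-cell lymphomas (mPTCL 1 to 9), of 3 samples of normal T cells activated in vitro and of 3 samples of normal resting T cells, all on the C57BL/6 background. The lymphomas arose in CD3-knockout hosts that received p53-knockout T cells, and were sorted from liver. Such hosts lack mature T cells of their own but keep B and myeloid cells. The activated and resting cells came from 5-week-old p53-knockout mice, and their labels name liver or spleen as the organ and injections of PBS or heat-killed Streptococcus pneumoniae every 2 weeks as the scheme of the mice. All 3 groups thus lack p53, so no contrast shows an effect of its loss, and no p53-intact cell is included. The labels state neither the agent nor the time of activation, nor separate animals for the normal samples, whose spread may be technical. Each lymphoma number was taken as a separate tumour. The deleted gene was not analysed here.

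In G1 phase, D cyclins bind Cdk4 or Cdk6 and E cyclins bind Cdk2. These kinases phosphorylate Rb and its relatives, which otherwise hold E2F factors in check, and E2F then drives the genes of DNA synthesis, Ccne1 and Ccne2 among them. Cyclin D2 and cyclin D3 with Cdk6 are the forms best known in T cells, which leave quiescence through this switch on activation.

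Promoter sequence is shown for 4 of these genes as examples. By the probe set that stands for each gene, Rbl1 and Ccne1 followed the mitotic genes across lymphomas, while Cdk2 and Cdk4 did not pass that test. Neither did Ccnd3 and Cdk6, whose windows were searched but are not shown. A second Rbl1 probe set did not pass it either. The 250 bases before each start were taken from RefSeq (GRCm38.p6), which matched 6 of the 10 genes. They are chr2:157204535-157204784 (minus strand) for Rbl1, chr7:38107491-38107740 (minus) for Ccne1, chr10:128705052-128705301 (minus) for Cdk2 and chr10:127063285-127063534 (plus) for Cdk4. Capitals mark matches, on either strand, to TTCCCGC, the usual form of the E2F word, or to its variant forms (TTCGCGC and, less like it, TTGGCGC and also TTGCCGC), or to the E-box, which is CACGTG, a word bound by Myc and related factors.
Rbl1: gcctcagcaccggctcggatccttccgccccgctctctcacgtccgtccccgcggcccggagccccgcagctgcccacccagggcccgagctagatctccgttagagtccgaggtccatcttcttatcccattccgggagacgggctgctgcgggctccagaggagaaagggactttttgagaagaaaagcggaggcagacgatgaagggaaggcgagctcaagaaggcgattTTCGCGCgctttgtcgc
Ccne1: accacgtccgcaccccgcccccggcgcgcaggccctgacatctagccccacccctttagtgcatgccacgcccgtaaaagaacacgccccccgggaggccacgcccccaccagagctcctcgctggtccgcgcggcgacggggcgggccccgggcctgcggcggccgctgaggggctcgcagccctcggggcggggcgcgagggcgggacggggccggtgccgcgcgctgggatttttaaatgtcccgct
Cdk2: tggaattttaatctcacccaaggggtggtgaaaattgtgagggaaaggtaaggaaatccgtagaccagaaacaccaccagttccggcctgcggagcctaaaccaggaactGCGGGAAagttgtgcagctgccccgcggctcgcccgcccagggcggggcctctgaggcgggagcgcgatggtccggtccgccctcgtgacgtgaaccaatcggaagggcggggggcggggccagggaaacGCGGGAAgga
Cdk4: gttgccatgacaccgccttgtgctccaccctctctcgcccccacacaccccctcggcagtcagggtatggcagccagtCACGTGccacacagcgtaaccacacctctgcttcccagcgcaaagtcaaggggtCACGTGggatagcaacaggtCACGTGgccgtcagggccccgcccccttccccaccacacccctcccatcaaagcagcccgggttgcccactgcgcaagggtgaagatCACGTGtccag
Rbl1 held 1 E2F word and Cdk2 held 2, GCGGGAA being TTCCCGC read on the other strand. At least 1 such word was in 7.89% of 32851 mouse promoters of this length, and at least 2 were in 0.776%. Cdk4 held 4 E-boxes, a number reached by 0.0213% of these promoters, against 6.02% with at least 1. No searched word was in the Ccne1 window, nor in the 2 windows of Ccnd3, and Cdk6 held 1 E-box. Ccnd1, Ccnd2, Ccne2 and Rb1 were not matched.

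Each array had been scaled to the same trimmed mean of 500 signal units. The median signal was 68.0 to 116 in lymphomas, 110 to 118 in activated cells and 91.7 to 99.2 in resting cells. The actin 3′ to 5′ ratio, which grows with RNA degradation, was 1.47 to 2.65, 1.49 to 1.54 and 1.26 to 1.498 in the same order. The Gapdh ratio, 1.26 to 2.10, 1.26 to 1.36 and 1.86 to 2.21 in that order, was by contrast higher in resting than in activated cells. Correlations between arrays of a group were 0.761 to 0.924 among lymphomas, 0.970 to 0.974 among activated and 0.968 to 0.976 among resting samples. Markers of other cells varied by tumour. All 9 measured B cell markers were above every normal array in mPTCL 1 and 5, and 4 of 9 were in mPTCL 4. Their mean log2 signal was 5.66 to 12.4 in lymphomas, 6.87 to 8.75 in activated and 8.09 to 8.52 in resting cells. Pax5 and Blnk were at the floor in mPTCL 2, 3, 6 and 7. Yet 2 of the 9 markers were above every normal array in mPTCL 3, as was 1 of 9 in mPTCL 8. The neutrophil marker mean was 5.63 to 11.5, 5.54 to 5.68 and 5.75 to 5.87, and only mPTCL 3 and 7 lay within 1 log2 unit of the normal arrays. T cell markers averaged 8.70 to 11.6 in lymphomas, below the 12.7 to 12.8 of activated and 13.0 to 13.2 of resting cells, and Cd3e was at the floor in mPTCL 4. In such bulk RNA, fewer cells of a type and less RNA per cell cannot be told apart. A preparation kit is named for normal samples alone and a software version for lymphomas alone, so in either lymphoma contrast any such batch cannot be told apart from the tumours themselves.

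**Figure D1:**
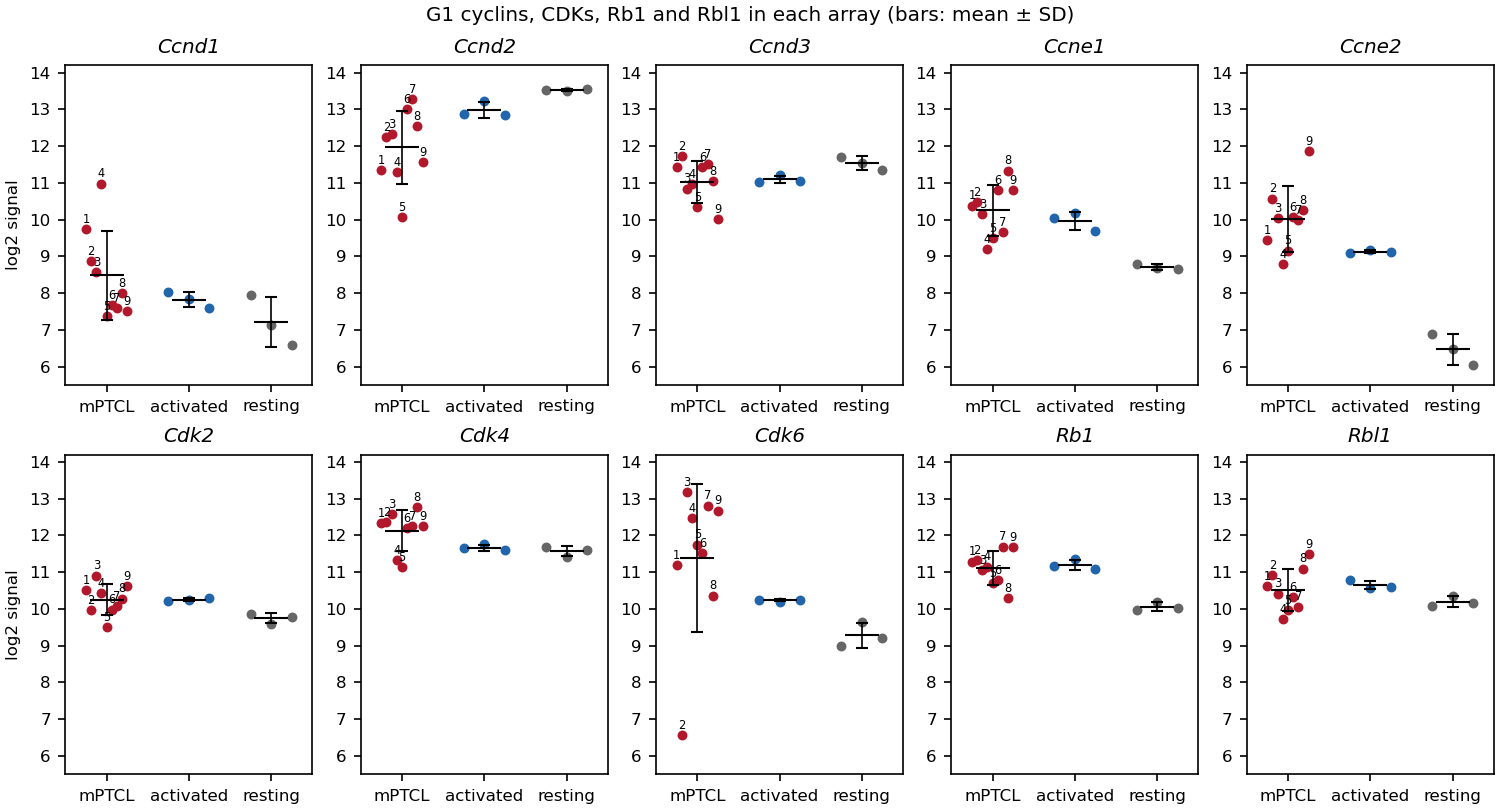
Log2 signal of the 10 genes in each array, in lymphomas (mPTCL, red, numbered by tumour), activated T cells (blue) and resting T cells (grey), with bars for the mean ± SD of each group (n = 9, 3 and 3). Ccne1, Ccne2 and Rb1 of all lymphomas lie above the resting samples, Ccnd2 of all lymphomas lies below them, and Cdk6 of mPTCL 2 lies far below the other lymphomas.

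The E cyclins and Rb1 were higher both in activated cells and in lymphomas than in resting cells, by 2.07-fold to 11.7-fold, while Ccnd2 was at its highest in resting cells. Signals of Ccne2, which encodes cyclin E2, were 439 in the lowest lymphoma, 1048 at the median and 3706 in the highest. They were 543, 581 and 556 in activated cells and 119, 88.8 and 66.0 in resting cells. No lymphoma and no activated sample overlapped the resting samples. Ccne2 rose by 2.66 ± 0.26 log2 units in activated over resting cells (SE, n = 3 and 3; 6.31-fold, limma adjusted p = 9.52e-04). It rose by 3.55 ± 0.51 in lymphomas over resting cells (n = 9 and 3; 11.7-fold, 95% confidence interval 5.48 to 24.9, adjusted p = 6.24e-04).

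Signals of Ccne1, the gene of cyclin E1, were 589 in the lowest lymphoma, 1334 at the median and 2579 in the highest. In activated cells they were 1051, 1150.5 and 818, and in resting cells 443, 407 and 406. By this probe set, 1441910_x_at, the lowest lymphoma, mPTCL 4, was still above every resting sample. By the other, 1416492_at, mPTCL 4, 5 and 7 (131, 176 and 173.5) lay inside the resting range of 112 to 186. Ccne1 rose by 1.25 ± 0.16 in activated cells (2.38-fold, limma adjusted p = 0.0024) and by 1.55 ± 0.39 in lymphomas (2.93-fold, adjusted p = 0.0174), both against resting cells. The lymphoma call was lost when any 1 of the 3 resting samples was left out (adjusted p = 0.0671 to 0.0776). It was also lost with the mean of the probe sets (1.18, adjusted p = 0.0583).

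Rb1, the retinoblastoma protein gene and the brake of this switch, was higher in activated cells and in lymphomas than in resting cells. Its signals were 1259 in the lowest lymphoma, 2272 at the median and 3310.2 in the highest. Activated cells had 2276, 2599.7 and 2184, and resting cells 996, 1167 and 1035. Only the lowest lymphoma, mPTCL 8, came near the resting range, and the 3 activated samples lay inside that of the lymphomas. Rb1 rose by 1.14 ± 0.11 in activated over resting cells (2.21-fold, limma adjusted p = 8.86e-04). In lymphomas over resting cells it rose by 1.05 ± 0.28 (2.07-fold, adjusted p = 0.0206). That call was lost when any 1 of the 3 resting samples was left out (adjusted p = 0.0679 to 0.0925) and with the mean of the probe sets (0.83, adjusted p = 0.0559). The change was just under 2-fold without mPTCL 7 or mPTCL 9 (0.98 in each).

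Rbl1 encodes p107, a pocket protein known to accumulate in cycling cells. Its signals were 841 in the lowest lymphoma, 1364 at the median and 2855 in the highest, against 1753, 1531 and 1544 in activated cells and 1085, 1308 and 1145 in resting cells. Resting and activated samples did not overlap, and the lymphomas spanned both, with 5 above every resting sample and 3 below. Activated cells were 0.45 ± 0.11 above resting cells (1.37-fold, limma adjusted p = 0.0238), short of 2-fold. Lymphomas differed from resting cells by 0.31 ± 0.33 (adjusted p = 0.548, interval -0.41 to 1.03).

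The D cyclins did not move as a group. Ccnd2, the gene of cyclin D2, had signals of 1076 in the lowest lymphoma, 4875 at the median and 9979 in the highest. Activated cells had 7476, 9585 and 7315, and resting cells 11717, 11552 and 12114. All 9 lymphomas and all 3 activated samples were below the lowest resting sample. Ccnd2 was 1.46-fold lower in activated than in resting cells (-0.55 ± 0.12, limma adjusted p = 0.0166), short of the 2-fold threshold. In lymphomas against resting cells the difference was -1.56 ± 0.53 (2.95-fold lower, interval -2.70 to -0.42), and the limma adjusted p of 0.0574 missed the threshold. A two-sided exact permutation test of this gene alone gave p = 0.0182 (n = 9 and 3).

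This outcome depended on single tumours and on the processing. Ccnd2 was called as lower after quantile normalization, with all 15 arrays in 1 fit and with array weights per group. It was not called without any 1 of the resting samples. The limma adjusted p was 0.0362, 0.0446 and 0.0319 without mPTCL 5, 6 or 7, with differences of -1.32, -1.69 and -1.72. The lowest Ccnd2 signals, 1076, 2518 and 2588, were those of mPTCL 5, 4 and 1, the 3 lymphomas with the highest B cell marker means (12.4, 9.29 and 11.0). Without these 3 lymphomas, an alternative chosen after seeing the data, Ccnd2 was lower than in resting cells by -1.03 (adjusted p = 0.0431). Without mPTCL 1 and 5 alone it was lower by -1.20 (adjusted p = 0.0499). As a description over the 9 lymphomas, r of Ccnd2 was -0.89 with the B cell marker mean, -0.68 with the neutrophil mean and -0.70 with the macrophage mean. With mPTCL 3 and 7 alone, the lymphomas nearest normal cells in neutrophil markers, the difference was -0.72 (adjusted p = 0.184). The part of these other cells in the Ccnd2 difference was not tested.

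Ccnd3, the gene of cyclin D3, had signals of 1032 in the lowest lymphoma, 2100.5 at the median and 3400 in the highest. They were 2091, 2374 and 2119 in activated cells and 3349, 2992 and 2594 in resting cells. Activated samples were all below resting ones, by -0.44 ± 0.12 (1.35-fold lower, limma adjusted p = 0.0311), and lymphomas overlapped both groups. The difference of lymphomas from resting cells was -0.50 ± 0.33 (adjusted p = 0.312).

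Ccnd1 encodes cyclin D1, which lymphocytes are known to use little. Its signals were 165 in the lowest lymphoma, 256 at the median and 2016 in the highest, against 259, 230.4 and 195 in activated cells and 246, 139 and 95.8 in resting cells. Only mPTCL 4 and mPTCL 1, at 2016 and 855, exceeded 500, and 5 lymphomas were above every resting sample. Neither the difference of lymphomas from resting cells (1.27 ± 0.68, limma adjusted p = 0.217) nor that of activated from resting cells (0.61 ± 0.37, adjusted p = 0.254) passed. All 3 Ccnd1 probe sets had their highest signal in mPTCL 4, at 2016, 1005 and 394. That tumour also had the highest macrophage and stromal marker means among lymphomas (10.4 and 7.83), and 9 of 10 macrophage markers were above every normal array there. The part of these cells in the signal was not tested.

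Of the kinases, Cdk6 differed most between tumours. Cdk6, a partner of the D cyclins, had a signal of 94.1 in mPTCL 2, the lowest lymphoma, 3443 at the median and 9299 in mPTCL 3, the highest. Activated cells had 1216, 1172 and 1215, and resting cells 504, 803 and 596. All lymphomas except mPTCL 2 were above every normal sample. Activated cells were 0.95 ± 0.18 above resting cells (1.93-fold, limma adjusted p = 0.0096), just short of 2-fold. Over its 3 probe sets this rise ran from 0.65 to 1.17, and 1 of them, the highest, was called. With 1 sample left out it ran from 0.80 to 1.13. Over all 9 lymphomas the difference from resting cells was 2.10 ± 1.06 (4.30-fold, interval 0.883 to 20.9, adjusted p = 0.185) and that from activated cells 1.16 ± 1.06 (adjusted p = 0.454).

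Each sample was left out in turn, and mPTCL 2 is named here for its low Cdk6 value. Without it, Cdk6 was 2.71 log2 units higher in lymphomas than in resting cells (limma adjusted p = 0.0054). Against activated cells it was 1.76 higher (limma adjusted p = 0.0327). Leaving out the lowest lymphoma raises the difference by itself, so these values describe the other lymphomas and are no separate test. The low value was shared by all 3 Cdk6 probe sets in mPTCL 2, at 94.1, 36.4 and 34.8, the last 2 close to the floor of 32. In mPTCL 3 and 7, the lymphomas with neutrophil marker means near those of normal cells, Cdk6 was at 9299 and 7162. Fitted alone, these 2 lymphomas were 3.71 above resting cells (limma adjusted p = 0.0079) and 2.76 above activated cells (limma adjusted p = 0.0064). They had the highest Cdk6 signals of all lymphomas, so this fit describes them and is no separate test either.

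Cdk4, the other kinase of the D cyclins, had signals of 2236 in the lowest lymphoma, 4879 at the median and 6986 in the highest, 3197, 3461 and 3100.0 in activated cells, and 3263, 2726 and 3125 in resting cells. In 7 of 9 lymphomas Cdk4 was above every normal sample, and mPTCL 4 and 5 were below all of them. Activated and resting samples overlapped, with a difference of 0.10 ± 0.10 (limma adjusted p = 0.464, interval -0.13 to 0.33). Lymphomas differed from resting cells by 0.57 ± 0.31 (adjusted p = 0.223).

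Cdk2, the partner of cyclin E, had signals of 727 in the lowest lymphoma, 1244 at the median and 1919 in the highest. They were 1192, 1207 and 1254 in activated cells and 935, 776 and 882 in resting cells. Activated and resting samples did not overlap, and 8 of 9 lymphomas were above every resting sample, with mPTCL 5 below them. Activated cells were 0.50 ± 0.11 above resting cells (1.41-fold, limma adjusted p = 0.0151), and lymphomas 0.50 ± 0.27 (adjusted p = 0.211).

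Counted together, 3 of the 10 genes, Ccne1, Ccne2 and Rb1, were called in activated against resting cells, where a call needs a 2-fold difference as well as an adjusted p below 0.05. In that comparison 12.7% of all tested genes were called, 8.45% as higher and 4.23% as lower. At the adjusted p alone 8 of 10 passed, 6 higher and 2 lower, against 30.9% of all genes (15.4% higher and 15.5% lower), and the same 8 had groups that did not overlap, against 46.6%. The median log2 change was 0.55 over the 10 genes and 0.02 over all tested genes. When the lymphomas entered the same fit (15 arrays), Ccne2 alone was called in activated cells, and Ccne1 (adjusted p = 0.166) and Rb1 (0.0587) were not. In lymphomas against resting cells the same 3 genes were called, against 13.9% of all genes (7.03% higher and 6.84% lower), and 4 of 10 did not overlap (Ccne1, Ccne2, Rb1 and Ccnd2), against 19.4%. The medians were 0.81 and -0.02.

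**Figure D2:**
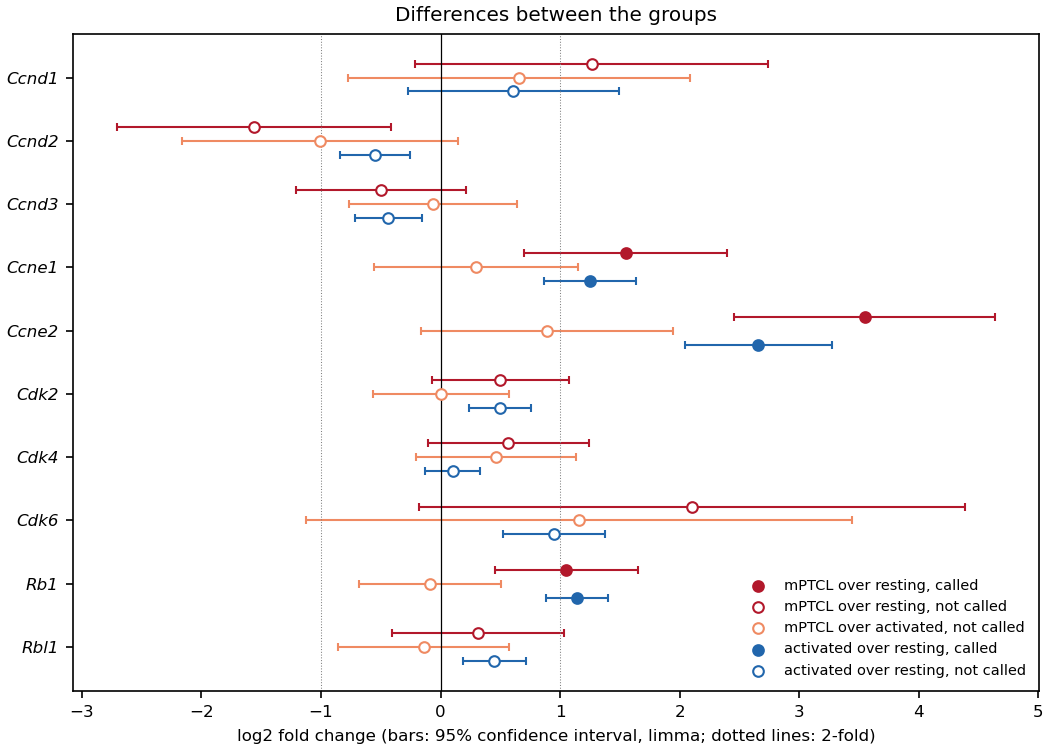
Log2 fold changes of the 10 genes with 95% confidence intervals for mPTCL over resting cells (red), mPTCL over activated cells (orange) and activated over resting cells (blue); filled points are called. Ccne1, Ccne2 and Rb1 are filled in both contrasts with resting cells, and in both lymphoma contrasts the interval is widest for Cdk6, which runs from -0.18 to 4.39 for mPTCL over resting cells.

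Lymphomas were then set against activated cells, which are also dividing. None of the 10 genes was called, against 15.3% of all tested genes (7.04% higher and 8.28% lower), none passed an unadjusted p of 0.05, and none had groups that did not overlap, against 22.1%. The lowest exact permutation p was 0.123, for Ccne2. With array weights per group, Ccnd2 was called as lower (limma adjusted p = 0.0252). The largest differences were those of Cdk6, given above, Ccnd2 (-1.01 ± 0.53, limma adjusted p = 0.193) and Ccne2 (0.89 ± 0.49, adjusted p = 0.211). In 7 of 9 lymphomas Ccne2 was above every activated sample, and in 7 of 9 Ccnd2 was below every one. The 95% confidence interval of Ccne2 ran from 0.891-fold to 3.85-fold, that of Ccne1 from 0.679-fold to 2.22-fold, that of Rb1 from 0.622-fold to 1.42-fold and that of Cdk2 from 0.676-fold to 1.48-fold. Ccnd1 (0.66 ± 0.66), Ccnd3 (-0.06 ± 0.33), Cdk4 (0.47 ± 0.31) and Rbl1 (-0.14 ± 0.33) also did not pass. Without mPTCL 1, 4 and 5, the alternative chosen after seeing the data, Ccne2 was 1.33 above activated cells (limma adjusted p = 0.0289). Those lymphomas had the lowest Ccne2 signals (700, 439 and 570). Leaving them out raises the difference by itself, so this value describes the other lymphomas and is no separate test. The median log2 difference was 0.15 over the 10 genes and -0.08 over all. Both contrasts with resting cells share those 3 samples, and both lymphoma contrasts share the 9 lymphomas, so they do not count as separate evidence.

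The genes differed in how much they varied between lymphomas. The SD of log2 signal over the 9 tumours was 2.02 for Cdk6, which exceeds that of 96.5% of tested genes, then 1.21 for Ccnd1, 1.00 for Ccnd2, 0.89 for Ccne2 and 0.70 for Ccne1. It was 0.42 for Cdk2, 0.46 for Rb1, 0.55 for Cdk4 and 0.57 for both Ccnd3 and Rbl1, below the median of 0.60 over all genes. Single tumours were extreme for several genes. Of the lymphomas, mPTCL 5 had the lowest Ccnd1, Ccnd2, Cdk2 and Cdk4 signals. In mPTCL 4 Ccnd1 was at its highest and Ccne1, Ccne2 and Rbl1 at their lowest. These 2 tumours had the lowest T cell marker means (8.95 in mPTCL 5 and 8.70 in mPTCL 4). They also had the highest actin 3′ to 5′ ratios of all arrays (2.65 in mPTCL 5 and 2.41 in mPTCL 4). The part of RNA quality or of other cells in these extremes was not tested. In mPTCL 9, Ccne2 (3706) and Rbl1 (2855) were at their highest and Ccnd3 (1032) at its lowest. In mPTCL 8, Ccne1 (2579) and Cdk4 (6986) were at their highest and Rb1 (1259) at its lowest.

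**Figure D3:**
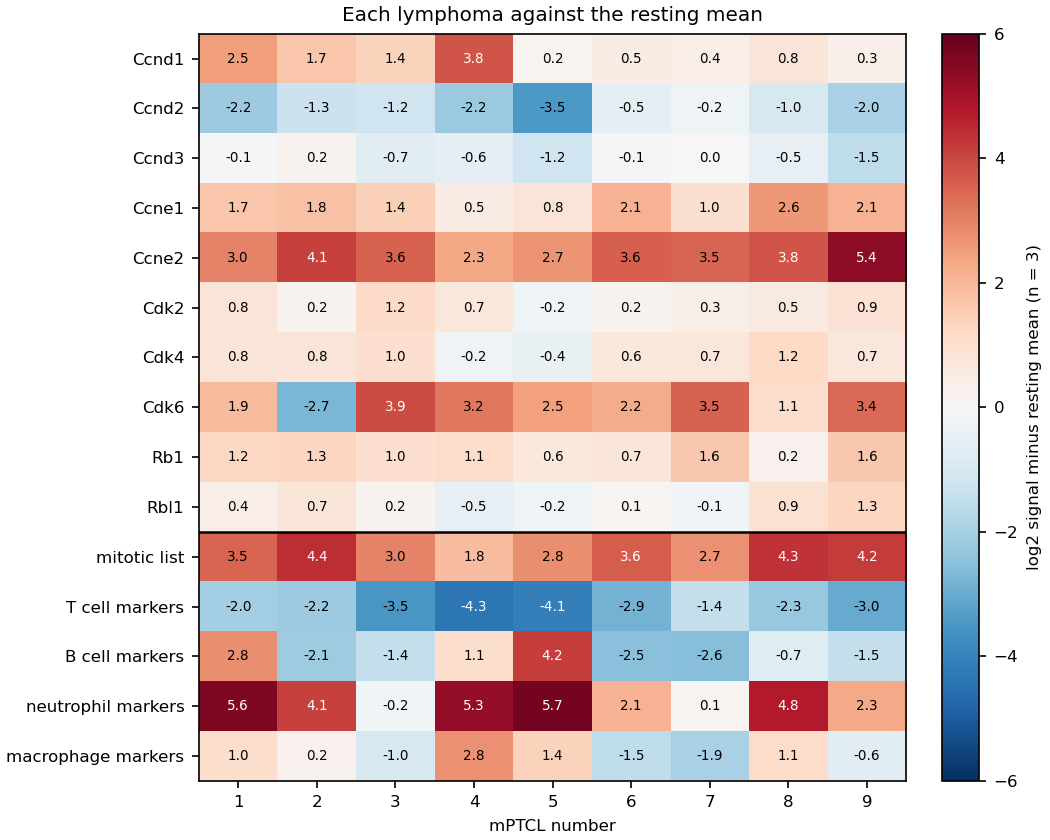
Log2 signal of each gene in each lymphoma minus the mean of the 3 resting samples, with the mitotic list and marker list means on the same scale below the line. Columns are tumours, red is above and blue below the resting mean. Cdk6 is blue in mPTCL 2 alone, and the deepest Ccnd2 value is in mPTCL 5, which has the highest B cell marker mean.

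Across the 9 lymphomas, each gene was set against the mean log2 signal of 10 measured genes of mitosis, among them Mki67, Aurkb, Cdk1 and Bub1, none of which is among the 10. This mean was 9.32 to 11.9 in lymphomas, 11.2 in every activated sample and 7.33 to 7.75 in resting samples. Rbl1 followed it (Pearson r = 0.909, Spearman rho = 0.867, exact permutation p = 9.40e-04, adjusted p = 0.0061 over the 10 relations computed), and r was 0.904 without the 2 tumours farthest from the median, mPTCL 2 and 4. Ccne1 did so too (r = 0.901, rho = 0.867, exact permutation p = 0.0012, adjusted p = 0.0061, and 0.944 without those 2). The other Ccne1 probe set gave r = 0.911 (1416492_at, exact permutation p = 0.0013, adjusted p = 0.0066). The second Rbl1 probe set, 1425166_at, gave r = 0.049 and rho = 0.083 (exact permutation p = 0.917), so the relation of Rbl1 rests on 1424156_at. Other probe sets were tried after seeing the data. For Ccne2, r was 0.759 and rho 0.867 (exact permutation p = 0.0156), and the adjusted p of 0.0520 missed the threshold. For Cdk6, r was -0.60 and rho -0.65 (exact permutation p = 0.0768, adjusted p = 0.154). The other genes had adjusted p from 0.126 for Cdk4 (r = 0.672) to 0.997 for Cdk2 (r = 0.0017). For Ccnd3, r was 0.077 with its main probe set and -0.87 with 1438805_at (exact permutation p = 0.0024, adjusted p = 0.0080). The 9 points share array scaling and differ in other cells' markers. In the 6 lymphomas whose B cell marker mean was below the highest normal array, r was 0.849 for Rbl1, 0.807 for Ccne1, 0.558 for Ccne2 and -0.68 for Cdk6. The lymphomas with the highest mitotic means, mPTCL 2 and 8, also had the most NK cell markers above every normal array, 5 and 4 of 5. Of 5 erythroid markers, 4 were above every normal array in mPTCL 8, 9 and 5, whose mitotic means were 11.8, 11.7 and 10.3. As a description, r of the erythroid mean was 0.65 with Rbl1 and 0.48 with Ccne1, and r of the NK mean 0.73 and 0.80. The part of such cells in these relations was not tested. Among the 45 pairs of these genes, the strongest relation was that of Ccne2 with Rbl1 (r = 0.868, exact permutation p = 0.0018), and none passed adjustment (lowest adjusted p = 0.0815).

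**Figure D4:**
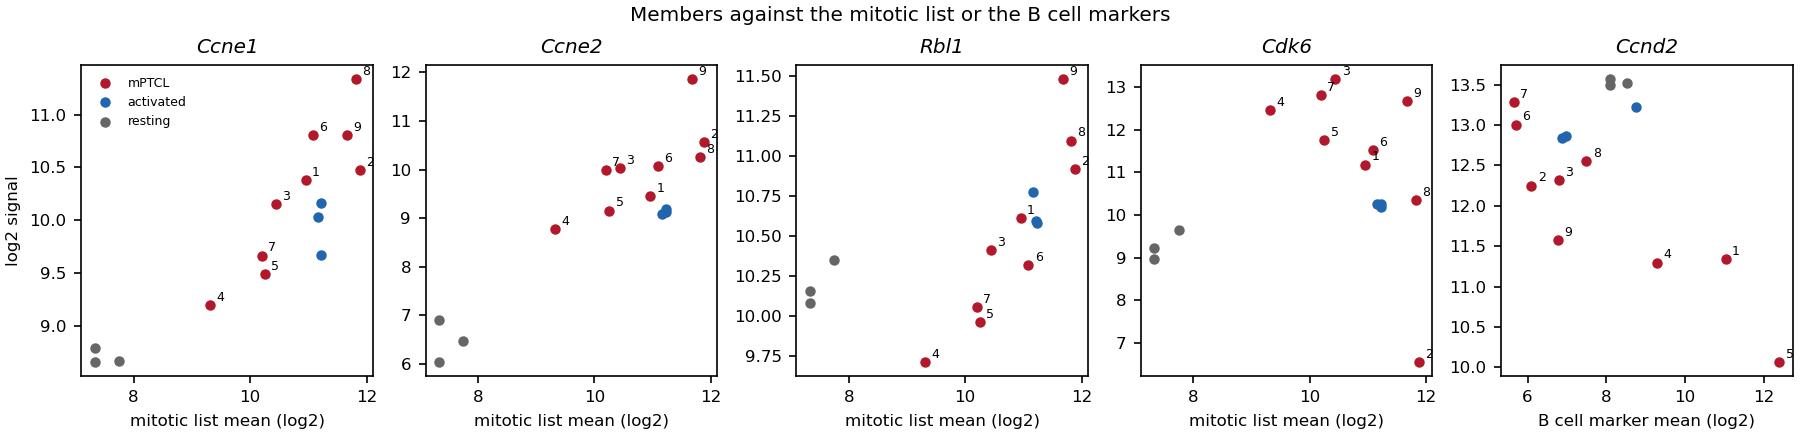
Log2 signal of Ccne1, Ccne2, Rbl1 (1424156_at) and Cdk6 against the mitotic list mean, and of Ccnd2 against the B cell marker mean, in lymphomas (red, numbered), activated cells (blue) and resting cells (grey). Rbl1 and Ccne1 rise along the mitotic mean from mPTCL 4 to mPTCL 8 and 9, Cdk6 is lowest in mPTCL 2, where that mean is highest, and mPTCL 1, 4 and 5 have both the highest B cell marker means and the lowest Ccnd2.

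By Pearson correlation over the 9 lymphomas, with each gene read by its main probe set, the named genes most like Rbl1 were Spc25, which encodes a kinetochore protein (r = 0.991), Parpbp (0.960) and Uba3 (0.955). Those most like Ccne1 were Apip (0.957), the histone acetyltransferase gene Hat1 (0.956) and Ect2, a regulator of cytokinesis (0.953). The gene most like Cdk6 was the survival gene Bcl2 (r = 0.958), with signals of 52.5 in the lowest lymphoma, 2775 at the median and 14676 in the highest, followed by Fundc1 (0.941) and Syngr3 (0.917). For Ccne2 they were the RNA decay factor Upf1 (0.959), Rbmx (0.956) and Rnf26 (0.941). For Ccnd1 they were the dendritic cell lectin gene Cd209a (0.953), the matrix proteoglycan gene Vcan (0.953) and Rasa4 (0.944). For Ccnd2 they were the mitochondrial channel gene Vdac1 (0.953), Ppp1r14b (0.950) and Micos13 (0.942). For Ccnd3 they were Selenop (0.935), interferon gamma, Ifng (0.926), and Acp5 (0.921). For Cdk2 they were Pgm3 (0.976), the caspase gene Casp8 (0.946) and Ifi209 (0.945). For Cdk4 they were the mitochondrial ribosome gene Mrps6 (0.973), Ppil3 (0.970) and Hibch (0.967), and for Rb1 Fndc10 (0.917), Isca2 (0.914) and Selenbp1 (0.900). In their lowest lymphoma Cd209a, Vcan, Rasa4 and Syngr3 were at the floor of 32. Their medians over the lymphomas were low too, at 68.0, 75.8, 40.1 and 78.9. All genes named here are the top ranks among 11902 genes over 9 points and carry no test.

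Other genes of the pathway were read from function lists, whose counts stand beside the shares of all genes called (8.45% higher and 4.23% lower in activated over resting cells, 7.03% and 6.84% in lymphomas over resting cells, 7.04% and 8.28% in lymphomas over activated cells). Of 22 tested E2F targets of DNA synthesis, 12 rose in activated cells and 19 in lymphomas over resting cells, and none fell. The lymphoma count was 10 to 11 without any 1 of the resting samples and 18 to 21 without any 1 lymphoma. The activated count was 10 to 13 with 1 sample left out and 5 with all 15 arrays in 1 fit. The list medians were 1.13 and 1.67. Thymidine kinase Tk1 rose by 3.06 ± 0.26 and 4.21 ± 0.49 (limma adjusted p = 5.92e-04 and 1.96e-04). Of 10 E2F and DP genes, 4 rose in activated cells (median 0.83) and 5 in lymphomas (median 1.17) over resting cells. They were led by E2f8, a repressive E2F, at 4.35 ± 0.39 and 5.68 ± 0.44, with E2f2 at 2.83 and 2.18 and E2f7 at 2.16 and 2.28. The lymphoma calls of E2f2 and E2f7 were lost without any 1 of the resting samples, and that of E2f7 also without any 1 of 7 lymphomas. The E2f7 call in activated cells was lost with all 15 arrays in 1 fit. All 10 mitotic genes rose in both, with medians of 3.87 and 3.58.

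Of 8 inhibitors and relatives, 2 rose and none fell in each contrast with resting cells. Cdkn2c, which encodes the Cdk4 and Cdk6 inhibitor p18, rose by 1.39 ± 0.11 in activated cells and 2.38 ± 0.32 in lymphomas, and Cdkn1a by 1.41 ± 0.30 and 1.93 ± 0.47, all against resting cells. The Cdkn1a call was lost in activated cells without activated replicate 3 (limma adjusted p = 0.0538) or with all 15 arrays in 1 fit, and in lymphomas without any 1 of the resting samples (adjusted p = 0.0529 to 0.0790). The list medians were 0.34 and 0.86. Against activated cells, lymphomas had lower Cdkn1b, which encodes p27 (-1.04 ± 0.23, limma adjusted p = 0.0085), and lower Rbl2, the gene of the third pocket protein, p130 (-1.64 ± 0.41, adjusted p = 0.0145). The list median in that comparison was 0.14, with 2 lower and none higher, and the number lower was 0 to 3 with 1 sample left out. The Rbl2 call was lost without any 1 of the activated samples, and that of Cdkn1b without activated replicate 1 or 3 or mPTCL 1, 2 or 3. Cks1b, a cofactor of cyclin-dependent kinases in p27 turnover, rose in every comparison, by 2.63 in activated over resting cells, 3.93 in lymphomas over resting cells and 1.30 ± 0.35 in lymphomas over activated cells, where the call was lost without any 1 of the activated samples. It was the only called gene of the 10 for kinase activation and cyclin or p27 turnover in the first and last of these, and 1 of 5, with Wee1 (1.92) and Skp2 (1.46), in the other (medians 0.43, 1.04 and 0.50 in the same order). Of 7 genes of the MuvB complex and its partners, Mybl2 (1.70) and Foxm1 (1.34) rose in activated cells and Mybl2 (1.88) in lymphomas over resting cells, with medians of 0.04 and 0.45. The Mybl2 call in lymphomas was lost without resting replicate 2 or 3, and its call in activated cells with all 15 arrays in 1 fit.

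Against activated cells, none of the 22 synthesis genes, the 10 mitotic genes or the 7 MuvB genes was called in lymphomas (medians 0.66, -0.35 and 0.22), and of the E2F list E2f8 (1.33 ± 0.41) and Tfdp1 (1.25 ± 0.26) rose (median -0.02). The E2f8 call was lost without any 1 of the activated samples or without mPTCL 2, 6, 8 or 9. Up to 4 synthesis genes were called with 1 sample left out, the most without mPTCL 4. Of 12 factors upstream of the D cyclins or of quiescence, none was called in activated over resting cells (median -0.10). In lymphomas Stat5b, a signal carrier of cytokine receptors, fell by 2.17 against resting and by 2.80 against activated cells. The quiescence factor Foxo1 fell by 1.53 and 1.41 in the same order. The Stat5b call against resting cells was lost without resting replicate 1, and that of Foxo1 without any 1 of the resting samples. Against activated cells the Foxo1 call was lost without any 1 of the activated samples or without mPTCL 6, 7 or 9. Btg2 also fell (-1.30) against resting cells, making 3 lower (median -1.09). That count was 0 without resting replicate 1, 1 without replicate 2 or 3, and 3 to 5 without any 1 lymphoma. Against activated cells 5 fell, Stat5a (-1.41) among them, and Klf4 rose by 3.91 (median -1.27). There 1 to 2 were lower without any 1 of the activated samples and 4 to 6 without any 1 lymphoma, and the Klf4 call was lost without any 1 of the activated samples. Myc, which acts upstream of Ccnd2 and Cdk4, was 0.97 ± 0.58 above resting and 1.13 ± 0.59 above activated cells in lymphomas (adjusted p = 0.268 and 0.187).

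Different probe sets of a gene did not always give the same call. Of 25 tested probe sets of the 10 genes, 6 were called in lymphomas against resting cells, against 15.6% of all 22364 tested probe sets. Ccne2, Rb1 and Cdk2 had a single tested probe set each. The 7 Ccnd2 probe sets ran from -2.02 (1416123_at, limma adjusted p = 0.0238) to -0.68 (1455956_x_at, adjusted p = 0.364), all below 0, and 2 were called. The other Ccne1 probe set, 1416492_at, gave 0.81 (adjusted p = 0.209) in lymphomas and 0.88 (adjusted p = 0.0566) in activated cells, so both Ccne1 calls rest on 1441910_x_at, whose suffix marks probes that may also match other transcripts. By 1416492_at, lymphomas and resting samples overlapped. A second Rbl1 probe set, 1425166_at, was called in lymphomas (1.31, limma adjusted p = 0.0049), where 1424156_at was not. Its signals were 268 in the lowest lymphoma, 459 at the median and 660.2 in the highest, against 149, 196 and 202 in resting cells, with no overlap. The annotation does not say which transcript forms these probe sets read.

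**Figure D5:**
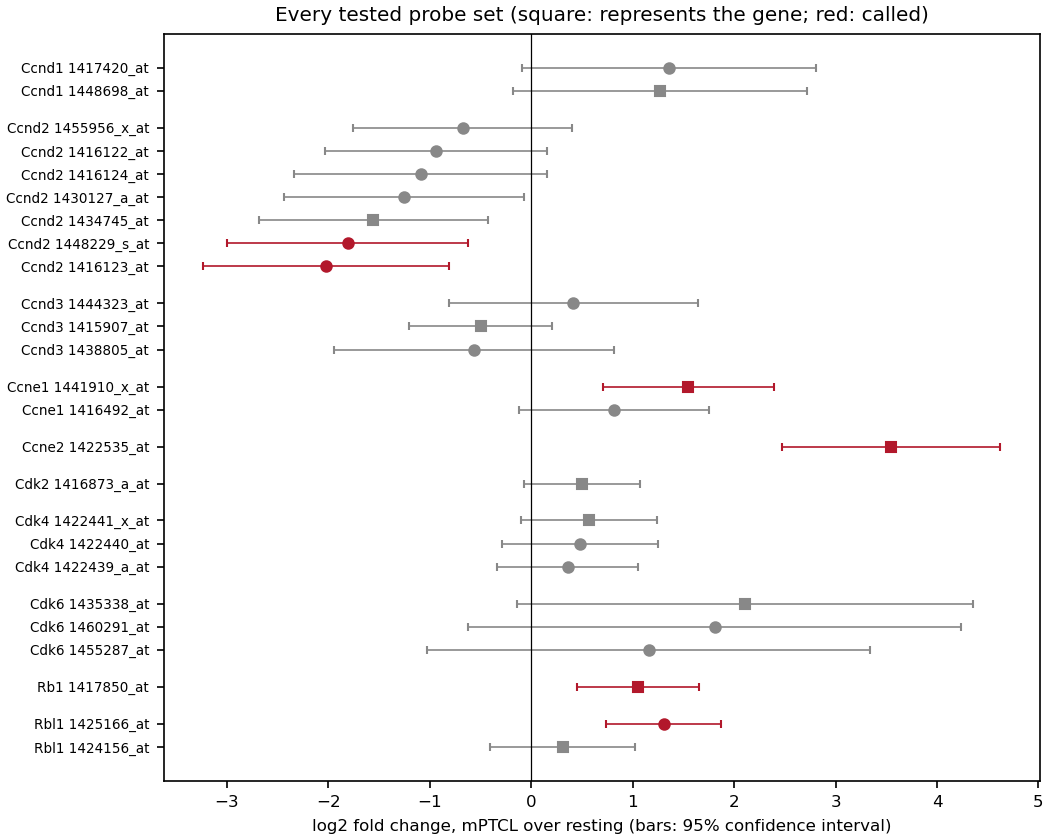
Log2 fold change of mPTCL over resting cells with 95% confidence intervals for each tested probe set of the 10 genes. Squares represent the gene in all other results, and red points are called. All 7 Ccnd2 probe sets lie below 0 and all 3 Cdk6 probe sets above it with wide intervals, while the probe sets of Ccne1 and of Rbl1 differ in call.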

How the data were processed

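RNA of 15 samples was hybridised to 1-colour Affymetrix mouse arrays with 45101 probe sets. The deposited values are linear signal intensities, made by the authors with MAS5 in Affymetrix Expression Console, per the submitters' processing notes. Their trimmed mean was 500 in every array.

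Probe sets were named from the platform annotation, with symbols updated through RefSeq. Of all probe sets 34958 had 1 symbol, 932 several and 9211 none, and only those with 1 symbol were used. Values were floored at 32 and put on the log2 scale, and the brightest probe set, by mean over all arrays, stood for a gene. The 11902 genes that reached 100 in 3 or more arrays entered the tests. Each comparison was fitted on its own arrays with limma 3.58.1 in R 4.3.3 (lmFit, eBayes with trend), with Benjamini-Hochberg adjustment over all tested genes. The fit was checked on simulated data. A call needed an adjusted p under 0.05 and a 2-fold change. With 3 against 3 samples an exact permutation test cannot go below 0.1. The number of arrays limits the precision.

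The genes and lists were chosen with earlier results of these data known. Named genes are the 10, up to 3 called genes per list and direction with the largest change, and the 3 named genes most correlated with each of the 10. Myc was named for its role after its values were seen. Resting and activated samples share replicate numbers, but same-numbered samples did not deviate together (r = -0.0112, 0.0495 and -0.0072), so no pairing was used. Alternatives covered normalization, floor, filter, probe set choice, array weights, left-out samples and lymphomas with other cells' markers.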

Additional observations from a re-analysis of the deposited data

Results flagged for a closer look

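The Cdk6 signal of mPTCL 2, at 94.1, stood apart from the other 8 lymphomas, which ran from 1313 to 9299. Its gap to the nearest lymphoma was 0.574 of the whole range on the log2 scale, above Dixon's critical value for 9 samples. Chance flags about 1 in 20 groups, and 10 genes were examined. All 3 Cdk6 probe sets were low in that tumour.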

How the results depend on the processing

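Under the alternatives, activated against resting cells gave 3678 genes and 8 of the 10 at the adjusted p alone, 2624 genes with every probe set tested, and 397 genes with 1 of the 10 with all 15 arrays in 1 fit (3 of the 10 and 1510 genes as reported). A replicate block gave 1431 genes and the same 3. Leaving out 1 sample gave 1267 to 1505 genes and 3 to 4 of the 10. Lymphomas against resting cells (1651 genes, 3 of the 10) gave 3482 genes and 5 with every probe set, 2715 and 5 with array weights per group, 1 of the 10 with the mean of probe sets, and 778 to 1850 genes and 1 to 4 of the 10 with 1 sample left out. Lymphomas against activated cells (1824 genes, 0 of the 10) gave 4094 genes with every probe set, 2946 genes and 1 with array weights, 916 to 2167 genes and 0 to 1 with 1 sample left out, 1 with only mPTCL 3 and 7 and 1 without the lymphomas above the normal B cell marker mean. After quantile normalization the split of higher and lower genes was 855 and 643 in activated against resting cells (1006 and 504 as reported) and 1036 and 895 in lymphomas against activated cells (838 and 986).

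Some signs turned. Probe set 1417420_at gave -0.24 for Ccnd1 in activated against resting cells. Probe set 1444323_at gave 0.66 for Ccnd3 there and 0.42 in lymphomas against resting cells. In lymphomas against activated cells, Ccnd3 was at 0.075 in mPTCL 3 and 7 alone and from -0.15 to 0.064 with 1 sample left out. Ccne1 was at -0.070 with 1416492_at, which also represents it without probe sets of shared sequence, and at -0.048 in mPTCL 3 and 7. Rb1 was at 0.17 in mPTCL 3 and 7 and from -0.16 to 0.011 with 1 sample left out, Cdk2 from -0.079 to 0.095. Rbl1 was at 0.57 with 1425166_at and at 0.065 without the lymphomas above the normal B cell marker mean. Correlations with the mitotic mean turned for Ccnd1 (0.025) and Ccnd3 (-0.20) without the 2 farthest lymphomas, and for Cdk2 (-0.00014) after quantile normalization. In the 6 lymphomas whose B cell marker mean was below the highest normal array, they turned for Ccnd1 (0.18), Ccnd2 (-0.58), Ccnd3 (-0.16) and Cdk2 (-0.21). With other probe sets, r was 0.049 for Rbl1 (1425166_at) and -0.87 for Ccnd3 (1438805_at). That of Ccne2 passed after quantile normalization (r = 0.785, adjusted p = 0.0388). Where no other cause is plain from the setting, the cause was not tested. Between lymphomas and activated cells the 95% confidence interval of Cdk6 ran from 0.458-fold to 10.9-fold, with an SD of log2 signal of 2.02 over lymphomas and 0.03 over activated cells.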
